A study of Mus musculus with 79 samples.

Results

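The serotonin receptors described here were 10 genes, Htr1a, Htr1b, Htr1f, Htr2a, Htr2c, Htr3a, Htr4, Htr5a, Htr6 and Htr7, found by their symbols among the 55471 genes of the count table. All 10 were matched and all 10 passed the filter on low counts in both regions. They were measured by bulk RNA sequencing in the medial prefrontal cortex (mPFC) and the ventral hippocampus (vHipp), punched from frozen brain slices of 40 wild-type male CD-1 mice, an outbred strain, 9 to 10 weeks old when they were housed for the experiment, by the study's methods. CTRL mice stayed in their housing groups without defeat, CSDS mice went through chronic social defeat stress on 21 consecutive days and returned to their own housing group after each defeat, and mice of both kinds received 1 injection of saline or of ketamine at 10 mg/kg, 7 days before collection. Each of the 4 groups (CTRL saline, CTRL ketamine, CSDS saline, CSDS ketamine) held 10 mice with a library per region, apart from 9 mPFC libraries in the CSDS ketamine group, which gave 79 libraries, and 39 mice had both regions. In the study the mice were housed in groups of 4, and whole housing groups were either CSDS or CTRL. The study's own model held the housing group as a term. The labels give neither the housing group nor the social rank, so neither was used as a term here. The tests therefore treat mice of 1 housing group as independent, also for stress.

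Serotonin is released in the forebrain by fibers from the raphe nuclei of the brainstem, and its receptors sort into classes by how they signal. The HTR1 and HTR5 receptors couple to Gi/o proteins, which restrain adenylyl cyclase and open potassium channels. The HTR2 receptors couple to Gq and phospholipase C, the HTR4, HTR6 and HTR7 receptors couple to Gs and raise cyclic AMP, and HTR3 is a ligand-gated cation channel. HTR1A is the main inhibitory receptor on pyramidal cells and also an autoreceptor on raphe neurons, HTR2A is the cortical target of psychedelic drugs, and HTR3A marks a class of inhibitory interneurons.

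Library totals lay between 11726129 and 34501588 counts in the mPFC and between 11782570 and 41767119 counts in the vHipp. The labelled regions were checked by lists of markers. The summed level of 10 markers of hippocampal fields, in CPM (counts scaled to a library of a fixed size), lay between 1022.6 and 1296 in the mPFC and between 1334 and 2222 in the vHipp, without overlap. The sum of 10 markers of cortical layers had a median of 520.1 CPM in the mPFC and 301.3 CPM in the vHipp, with ranges that overlapped. Not all members followed their sum. Dkk3 (669.9 CPM in the mPFC and 376.2 CPM in the vHipp) and Wfs1 (170.4 and 62.6 CPM), which made up most of the hippocampal sum in the mPFC, were lower in the vHipp while the other 8 were higher, and Tle4 (52.8 and 76.6 CPM), Syt6 and Nxph4 of the cortical list were higher in the vHipp. Some libraries stood apart in markers of other cells. The sum of 6 oligodendrocyte markers in the mPFC ran from 558.1 to 6236 CPM (median 1501), highest in mice 22 (CTRL saline), 6 (CSDS ketamine) and 2 (CSDS saline). The library of mouse 9 (CSDS saline) held 960.1 CPM of 10 choroid plexus markers, where its group had a median of 113.9 CPM, and the library of mouse 11 (CSDS ketamine) held 3115 CPM of 6 astrocyte markers, where its group had a median of 1076.3 CPM. The comparisons that use the vHipp were therefore also computed without mice 9 and 11, and those within the mPFC without mice 2, 6 and 22.

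RefSeq promoter windows of 300 bases, from 250 before to 50 after the start of a transcript, were found for 8 of the 10 receptors in GRCm38.p6, all but Htr3a and Htr4. The stretch of the window that lies before both the RefSeq start and the start of the gene in the count table is shown for Htr1a, which was higher in the vHipp, and for the 3 that were lower there by the most, Htr1b, Htr2a and Htr5a. Sequences read 5′ to 3′ on the strand of the gene, and capitals mark matches, on either strand, to 5 motifs: the TATA box core (TATAAA), the CCAAT box (CCAAT), the GC box core (GGGCGG), a CRE core (TGACG) and an E box (CACGTG). No matches overlapped in the sequences shown.
Htr1a, chr13:105443443-105443638, forward strand: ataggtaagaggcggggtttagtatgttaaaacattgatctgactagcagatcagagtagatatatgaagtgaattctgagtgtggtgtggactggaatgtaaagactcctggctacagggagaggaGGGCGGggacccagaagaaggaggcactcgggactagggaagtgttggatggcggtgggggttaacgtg
Htr1b, chr9:81633833-81634082, reverse strand: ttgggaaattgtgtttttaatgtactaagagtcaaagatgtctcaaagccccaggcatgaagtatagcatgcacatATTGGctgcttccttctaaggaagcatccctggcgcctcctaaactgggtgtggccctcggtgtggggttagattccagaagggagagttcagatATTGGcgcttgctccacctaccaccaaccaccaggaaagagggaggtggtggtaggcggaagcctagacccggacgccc
Htr2a, chr14:74640624-74640839, forward strand: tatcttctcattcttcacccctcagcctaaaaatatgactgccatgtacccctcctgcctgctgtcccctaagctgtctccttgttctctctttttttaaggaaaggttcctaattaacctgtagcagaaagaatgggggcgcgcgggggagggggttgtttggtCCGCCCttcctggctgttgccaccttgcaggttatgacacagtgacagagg
Htr5a, chr5:27841697-27841946, forward strand: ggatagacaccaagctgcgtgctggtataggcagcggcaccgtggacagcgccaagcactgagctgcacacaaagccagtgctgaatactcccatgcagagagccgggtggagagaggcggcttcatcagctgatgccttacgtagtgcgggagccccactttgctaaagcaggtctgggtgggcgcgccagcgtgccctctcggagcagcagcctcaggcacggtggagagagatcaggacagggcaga
Htr1a and Htr2a each held 1 match to the GC box core, beginning 69 and 51 bases before the end of the stretch shown. Htr1b held 2 matches to the CCAAT box, 174 and 79 bases before the start, and Htr5a held none of the 5 motifs in its window. These are common letters. Of 32851 windows in the table, 35.7% held the GC box core, 37.4% the CCAAT box, 20.8% the CRE core, 13.6% the TATA box core and 7.15% the E box. The windows of these 4 genes had a GC content between 52.0% and 61.3%, where the median of all windows was 52.7%. The window of Htr7 had 81% GC and 46 CpG dinucleotides, above the 90th percentile of all windows for both measures, 69.7% and 31. No binding or methylation was measured, so a match is a match of letters.

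Levels between genes were compared per kilobase of exonic length. In the mPFC the highest receptor was Htr2a, at 6.03 ± 0.91 CPM per kb (SD, n = 39), and the lowest was Htr4, at 0.52 ± 0.15 CPM per kb. In the vHipp the highest was Htr1a, at 7.33 ± 1.46 CPM per kb (n = 40), and the lowest was Htr1f, at 0.66 ± 0.19 CPM per kb. The order in the mPFC was Htr2a, Htr5a, Htr7, Htr1a, Htr3a, Htr2c, Htr6, Htr1b, Htr1f and Htr4. From Htr5a at 4.97 down to Htr1b at 2.43 CPM per kb, neighbors in that order differed by less than the larger of their SDs, whereas Htr2a stood above Htr5a in 37 of 39 libraries and Htr1b above Htr1f in all 39. The order in the vHipp was Htr1a, Htr3a, Htr7, Htr4, Htr2c, Htr5a, Htr2a, Htr6, Htr1b and Htr1f. Here Htr1a stood above Htr3a in 37 of 40 libraries and Htr6 above Htr1b in 38 of 40, while the neighbors from Htr3a at 4.54 down to Htr6 at 2.62 CPM per kb were within their spread.

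**Figure D1:**
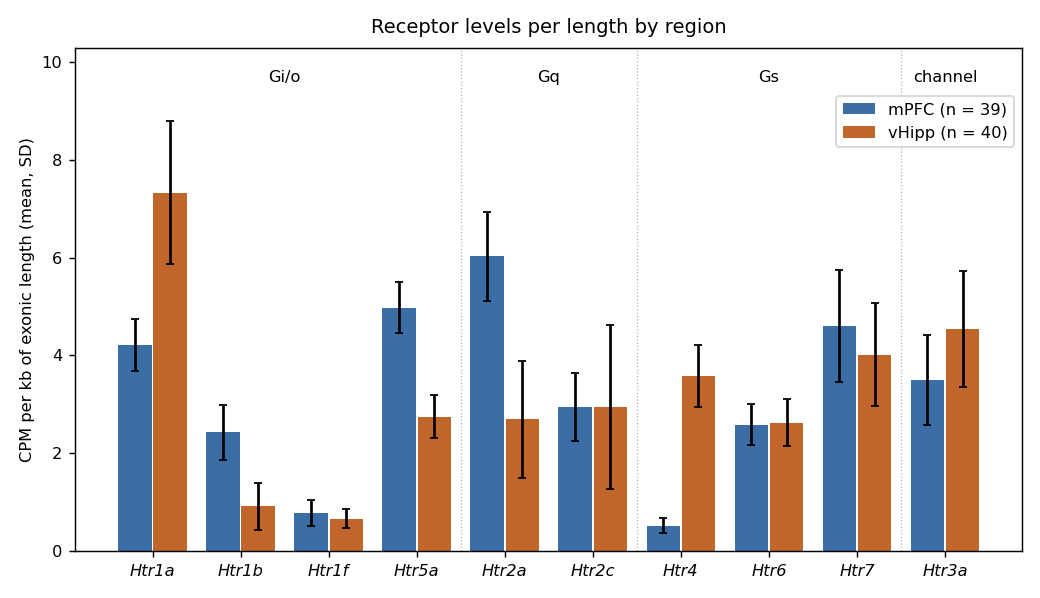
Level of each receptor per kilobase of exonic length (vertical axis, CPM per kb; bars are means over libraries and error bars the SD) in the mPFC (blue, n = 39) and the vHipp (orange, n = 40), ordered by signaling class. Htr2a led in the mPFC at 6.03 CPM per kb and Htr1a in the vHipp at 7.33 CPM per kb, and Htr4 went from 0.52 to 3.58 CPM per kb.

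The sum over the 10 receptors was alike in size in both regions, 32.6 ± 1.9 CPM per kb in the mPFC and 32.0 ± 4.1 CPM per kb in the vHipp, but its makeup was not. Gq-coupled receptors took 27.5% ± 2.9 of the sum in the mPFC and 17.3% ± 3.9 in the vHipp. Gs-coupled receptors took 23.7% ± 3.5 and 32.1% ± 4.5. The Gi/o class took 38.0% ± 2.8 and 36.5% ± 5.0, with Htr1a alone at 12.9% in the mPFC and 23.0% in the vHipp. The channel subunit Htr3a took 10.8% ± 3.0 and 14.2% ± 3.2. These shares are a description and were not tested.

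The difference between the regions was tested over all 79 libraries, as vHipp over mPFC averaged over the 4 groups. Of the 10 receptors 7 passed an adjusted p of 0.05, 3 of them higher in the vHipp (Htr1a, Htr3a, Htr4) and 4 lower (Htr1b, Htr2a, Htr5a, Htr7). Among all 31534 genes tested, 48.9% were called, 24.4% as higher in the vHipp and 24.5% as lower, so a call was common. The median absolute log2 fold change was 0.58 over the receptors and 0.26 over all genes. In bulk tissue, fewer cells of a type and less RNA per cell cannot be told apart.

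Among the Gi/o-coupled receptors, Htr1a ranged from 14.3 to 25.6 CPM in the mPFC, with a median of 18.3, and from 20.6 to 50.9 CPM in the vHipp, with a median of 31.7. The ranges overlapped, but all 39 mice with both regions had the higher value in the vHipp. This was a log2 fold change of 0.80 ± 0.05 (SE), 1.74-fold, with an adjusted p of 1.2e-22. Htr1b, found on axon terminals where it holds back transmitter release, went the other way. It ranged from 6.63 to 17.0 CPM in the mPFC (median 11.4) and from 1.60 to 12.5 CPM in the vHipp (median 3.85), and it was lower in the vHipp in all 39 mice. On the log2 scale the change was -1.43 ± 0.11, with an adjusted p of 6.1e-20.

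Htr5a, whose receptor is found mainly in the brain, was between 18.8 and 33.9 CPM in the mPFC and between 8.31 and 18.7 CPM in the vHipp. The highest vHipp library stood just under the lowest mPFC library, so the regions did not overlap. On the log2 scale it was a change of -0.86 ± 0.05, with an adjusted p of 1.2e-28. Htr1f, a receptor targeted by migraine drugs, was low in both regions, between 0.76 and 3.47 CPM in the mPFC and between 0.52 and 2.57 CPM in the vHipp, on 10 to 92 counts per library. Its log2 fold change of -0.21 ± 0.11 did not pass (adjusted p of 0.12).

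Of the Gq-coupled receptors Htr2a was called and Htr2c was not. Htr2a ranged from 22.7 to 43.7 CPM in the mPFC (median 32.6) and from 6.79 to 36.4 CPM in the vHipp (median 12.9). It was higher in the mPFC in 38 of 39 mice, with a log2 fold change of -1.17 ± 0.10 and an adjusted p of 3.0e-18. The ranges overlapped. The highest vHipp libraries were those of mouse 12 (CSDS ketamine) at 36.4 CPM and of mouse 32 (CTRL ketamine) at 34.8 CPM, and those of mice 4, 29, 31 and 30, at 25.0, 24.5, 23.9 and 22.9 CPM, also stood above the lowest mPFC library. Htr2c, a receptor whose messenger is edited and which is also abundant in the choroid plexus, had almost the same mean in both regions, 27.5 CPM. Its spread differed in size, with a coefficient of variation of 23.9% in the mPFC and 56.8% in the vHipp, where values ran from 7.87 to 81.6 CPM. The log2 fold change was -0.02 ± 0.12 (adjusted p of 0.93), and with mouse as a block it was -0.16 (adjusted p of 0.26).

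Among the Gs-coupled receptors, Htr4, which has been studied as a target for antidepressant and memory effects, had the largest difference of the 10. It ranged from 0.96 to 3.92 CPM in the mPFC and from 11.1 to 23.4 CPM in the vHipp, so every vHipp library was above every mPFC library. Between the regions the log2 fold change was 2.80 ± 0.08, 6.94-fold, with an adjusted p of 5.0e-47. Htr6, almost confined to the central nervous system in its known expression, was 6.04 ± 0.98 CPM in the mPFC and 6.14 ± 1.13 CPM in the vHipp, and its log2 fold change of 0.02 ± 0.06 did not pass (adjusted p of 0.77), with a 95% interval from -0.09 to 0.14.

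Htr7, known for roles in circadian timing and sleep, was 15.6 ± 3.9 CPM in the mPFC and 13.6 ± 3.6 CPM in the vHipp, and it was lower in the vHipp in 30 of 39 mice. The log2 fold change was -0.20 ± 0.08, with an adjusted p of 0.021. This call was lost without mouse 36, at a log2 fold change of -0.17 and an adjusted p of 0.0501, which left 6 receptors called. The channel subunit Htr3a ranged from 4.38 to 12.0 CPM in the mPFC (median 6.87) and from 5.63 to 17.1 CPM in the vHipp (median 8.71), and it was higher in the vHipp in 30 of 39 mice. Its log2 fold change was 0.37 ± 0.08, with an adjusted p of 3.7e-05. The summed level of 10 markers of interneurons that carry this receptor lay between 714.9 and 1014.7 CPM in the mPFC and between 582.6 and 1370 CPM in the vHipp, with medians of 807.2 and 789.0 CPM. The members of this list went in opposite directions: Vip had a mean of 65.7 CPM in the mPFC and 15.7 CPM in the vHipp, Lamp5 174.6 and 52.0 CPM, and Cck 305.9 and 181.6 CPM, whereas Calb2 had 23.0 and 79.8 CPM and Prox1 23.1 and 167.4 CPM. Prox1 is also on the list of hippocampal fields, so the sum is no measure of these cells across the regions. The part of these cells in the Htr3a difference was not tested. Without mice 9 and 11 all 7 receptors stayed past the threshold, with a log2 fold change of 0.33 for Htr3a and of -0.22 for Htr7.

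**Figure D2:**
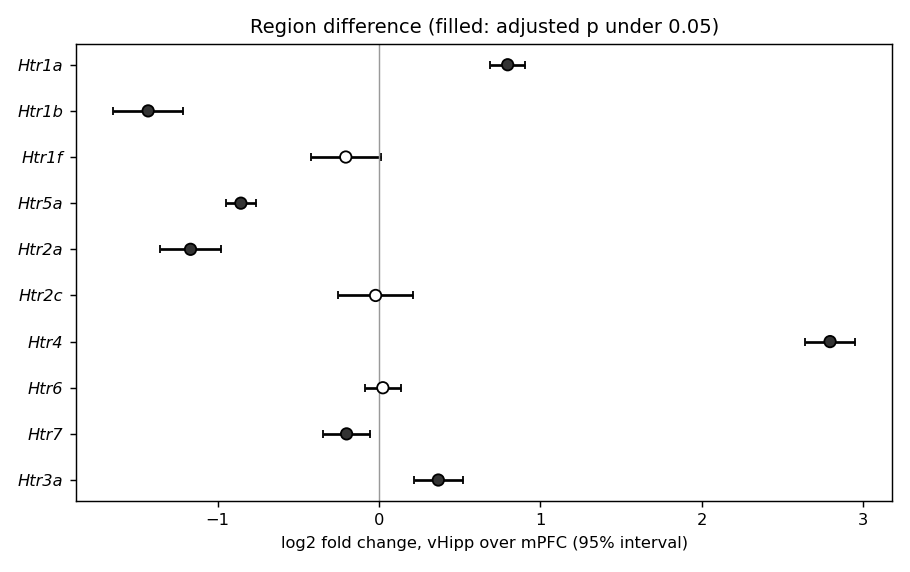
Log2 fold change of each receptor between the regions (horizontal axis, vHipp over mPFC; points are estimates, bars 95% intervals, filled points have an adjusted p under 0.05). Htr4 lies far to the right at 2.80, Htr1b at -1.43 and Htr2a at -1.17 to the left, and Htr6 and Htr2c lie near 0.

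The other genes of the serotonin system were read from a list of 50, of which all were tested between the regions. 21 were higher in the vHipp and 16 lower, and 13 did not pass, beside 24.4% of all genes higher and 24.5% lower. The 3 largest changes were in carriers of monoamines. Slc22a3, a low-affinity organic cation transporter, was 4.84 ± 1.49 CPM in the mPFC and 0.56 ± 0.24 CPM in the vHipp (log2 fold change -3.12, adjusted p of 9.1e-40). Slc29a4, the plasma membrane monoamine transporter, went from 7.24 ± 1.36 to 52.1 ± 12.7 CPM (2.84, adjusted p of 2.0e-50). Slc18a2, the vesicular monoamine transporter, was 0.51 ± 1.17 CPM and 1.81 ± 0.89 CPM (2.11, adjusted p of 4.8e-13), with 1 mPFC library at 7.51 CPM.

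Genes that mark the serotonin neurons themselves were low in these target regions. Tph2, the rate-limiting enzyme of serotonin synthesis in the brain, had 0.28 ± 0.12 CPM in the mPFC and 0.97 ± 0.35 CPM in the vHipp (1.74, adjusted p of 7.7e-21). Slc6a4, the serotonin transporter, had 0.14 ± 0.11 and 0.07 ± 0.08 CPM (-1.02, adjusted p of 0.0050). Ddc, which makes serotonin and dopamine from their precursors, had 2.28 ± 0.76 and 2.47 ± 0.72 CPM and did not pass. The degrading enzymes Maoa and Maob fell by 0.20 and 0.56 on the log2 scale from mPFC to vHipp, and S100a10 (p11), which binds HTR1B and HTR4 and brings them to the cell surface, fell by 0.86. All 3 passed, with adjusted p of 2.3e-07, 8.6e-16 and 9.3e-18. Of the 4 serotonin receptor genes that are no members, Htr1d was higher in the vHipp at 0.43 CPM against 0.29 CPM, and Htr2b, Htr3b and Htr5b did not pass.

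Stress and ketamine were then compared within each region, in fits over the 4 groups. No receptor passed an adjusted p of 0.05 in any of the 14 comparisons, and in each of them 0% of all genes tested were called by edgeR. DESeq2 called no receptor either, and 14 genes in 1 of the 14 comparisons. As a description, the receptors with an unadjusted p under 0.05 were therefore counted and set beside the share of all genes with one. None of the 50 other genes of the serotonin system passed in these comparisons either, and 49 of them were tested.

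**Figure D3:**
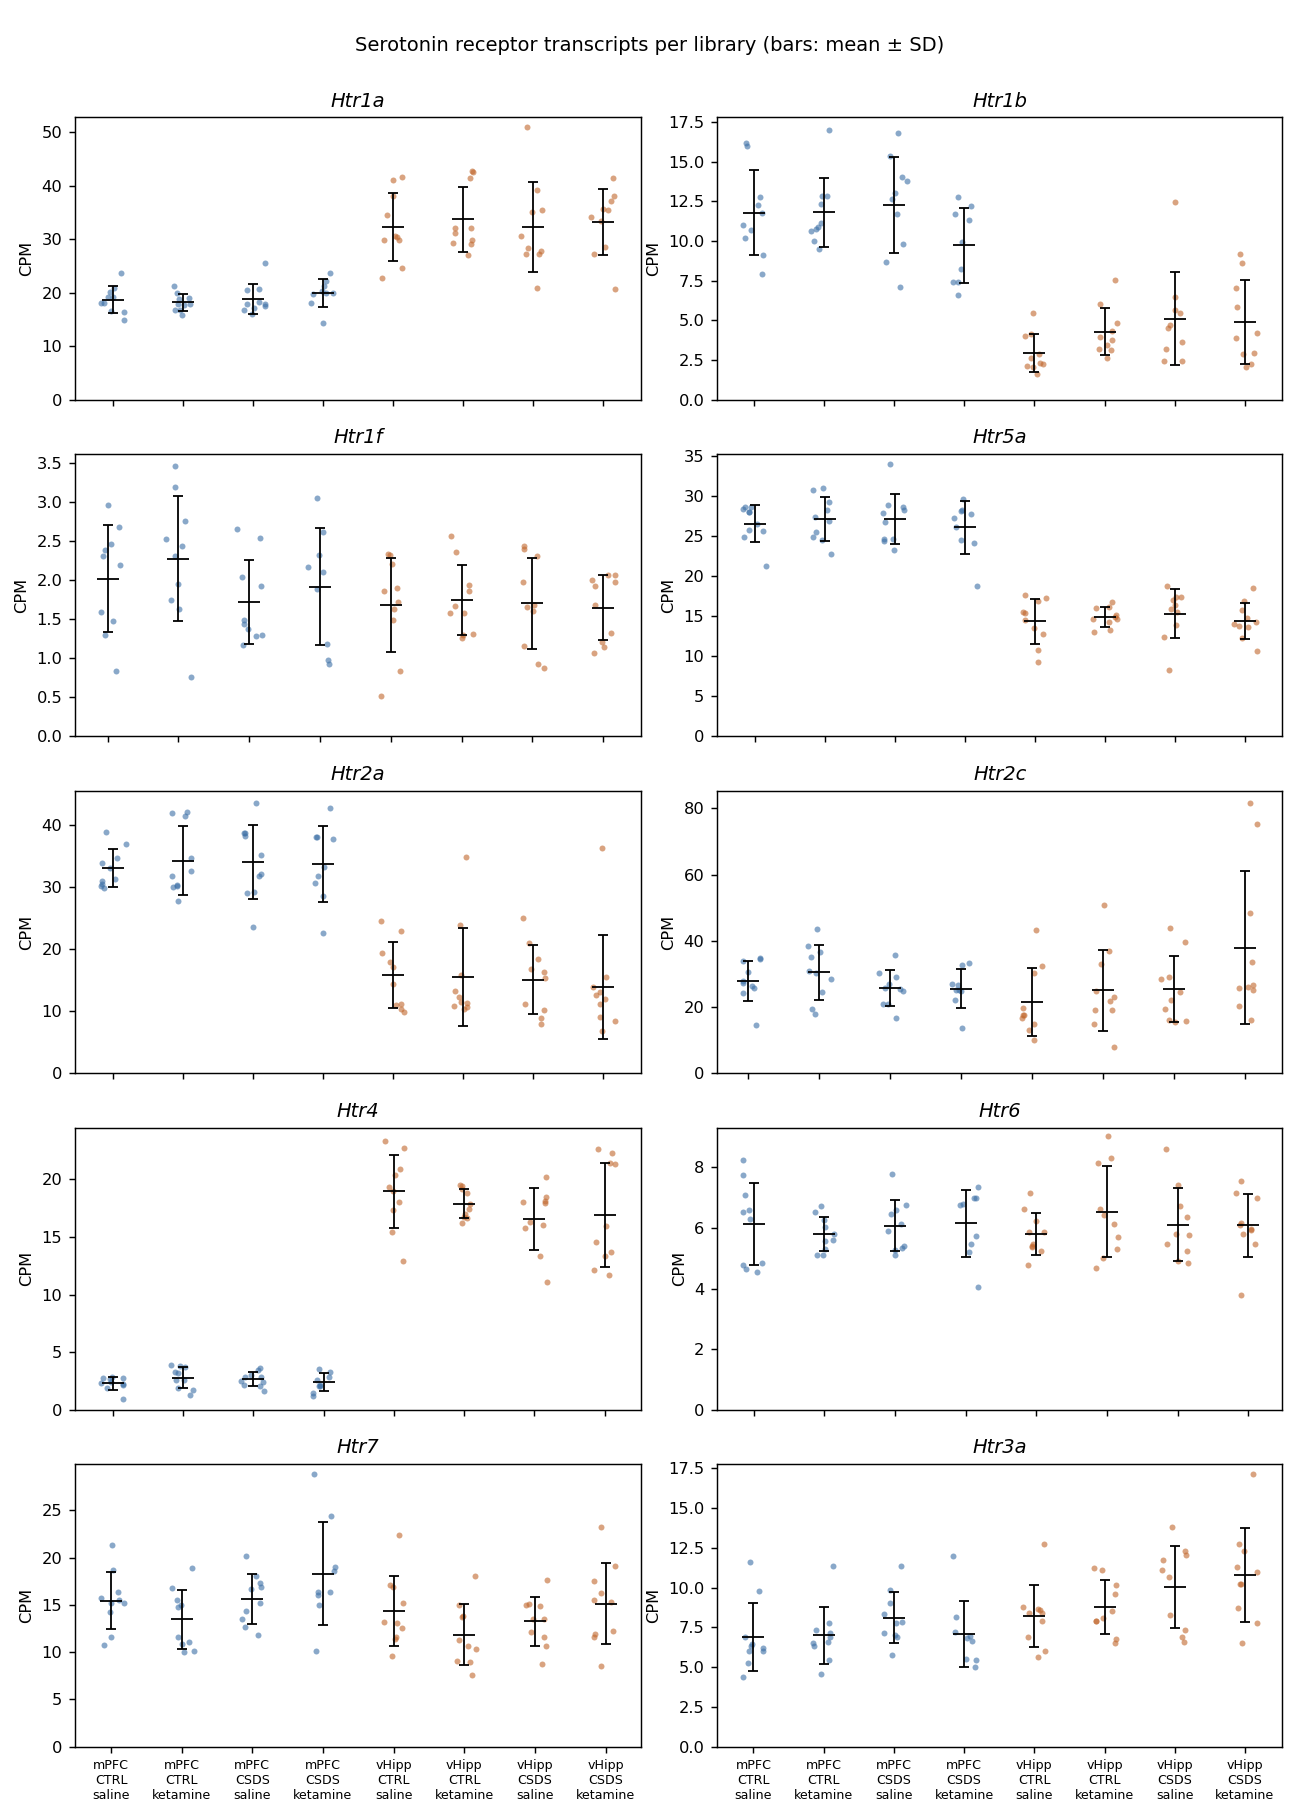
CPM of each receptor in every library (vertical axes, CPM from 0; points are libraries, horizontal marks the mean and bars the SD), by region and group, with 10 libraries per group and 9 for CSDS ketamine in the mPFC. Htr4 and Htr5a separate by region without overlap, the 4 groups of a region overlap for all receptors, and the highest Htr2c value is 81.6 CPM in the vHipp of a CSDS ketamine mouse.

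In the mPFC, CSDS was compared with CTRL under saline, under ketamine and averaged over both. Under saline no receptor had an unadjusted p under 0.05, against 2.94% of all genes, and the log2 fold changes lay between -0.24 and 0.23. Under ketamine 1 receptor did, Htr7, against 5.80% of genes, and averaged over treatments again Htr7 alone, against 3.52%. Ketamine was compared with saline in CTRL mice, where no receptor was under 0.05 (3.64% of genes), in CSDS mice, where Htr1b was (4.32%), and averaged over stress, where none was (3.07%). The interaction of stress and ketamine had Htr7 under 0.05, against 5.31% of genes. Among 10 receptors, 1 is the smallest count above 0.

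Htr7 in the mPFC ranged from 10.8 to 21.3 CPM in CTRL saline mice (median 15.3), from 10.1 to 18.9 in CTRL ketamine mice (median 13.2), from 11.8 to 20.1 in CSDS saline mice (median 15.9) and from 10.1 to 28.8 in CSDS ketamine mice (median 16.4). The groups overlapped, with the 2 highest values, 28.8 and 24.4 CPM, in CSDS ketamine mice 3 and 6. The log2 fold change of stress under ketamine was 0.45 ± 0.14 (unadjusted p of 0.0027, adjusted p of 0.83), and under saline the group means were 15.4 and 15.6 CPM. The interaction was 0.44 ± 0.20 (unadjusted p of 0.031, adjusted p of 0.90). Without mouse 3 the stress difference under ketamine was 0.34 (unadjusted p of 0.016) and the interaction 0.32 (unadjusted p of 0.087). Mice 3 and 6 had oligodendrocyte marker sums of 2731 and 6042 CPM in these libraries, and mice 22 and 2, highest for Htr7 in CTRL saline and CSDS saline, had 6236 and 5021 CPM. In CTRL ketamine mice the highest Htr7 library was that of mouse 36, whereas the highest oligodendrocyte sum was that of mouse 32, at 3490 CPM. The part of cell content in the Htr7 values was not tested. With the group means removed, Htr7 and this sum had r of 0.46 over the 39 libraries, and Htr6 had one of -0.48. Over the 40 libraries of the vHipp the sum had r of 0.12 with Htr7, 0.39 with Htr1b and with Htr2c, and -0.44 with Htr4. Without mice 2, 6 and 22 the stress difference under ketamine was 0.38 (unadjusted p of 0.0076) and the interaction 0.35 (unadjusted p of 0.075), and with the oligodendrocyte sum as a covariate they were 0.40 (unadjusted p of 0.0030) and 0.35 (unadjusted p of 0.052). With the sums of the choroid plexus and striatal lists as covariates the interaction was 0.26, with an unadjusted p of 0.13. In the mPFC the choroid plexus sum was mostly Enpp2, which oligodendrocytes also express, with a median of 156.2 CPM of a summed median of 166.5 CPM, whereas Ttr had a median of 0.27 CPM.

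In the vHipp of the same mice Htr7 ranged from 9.605 to 22.4 CPM in CTRL saline (median 13.2), from 7.59 to 18.1 in CTRL ketamine (median 10.9), from 8.74 to 17.7 in CSDS saline (median 13.5) and from 8.53 to 23.3 in CSDS ketamine mice (median 15.4). These groups overlapped too. The stress difference under ketamine was 0.36 ± 0.15 (unadjusted p of 0.026, adjusted p of 0.90) and the interaction 0.45 ± 0.22 (unadjusted p of 0.043, adjusted p near 1). Without the vHipp library of mouse 3 the first had an unadjusted p of 0.076, and without that of CTRL saline mouse 22 the interaction had one of 0.093.

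Htr1b in the mPFC was lowest in CSDS ketamine mice, at 9.74 ± 2.35 CPM (n = 9), beside 12.3 ± 3.0 CPM in CSDS saline, 11.8 ± 2.7 CPM in CTRL saline and 11.8 ± 2.2 CPM in CTRL ketamine mice. The ranges of the CSDS groups, 6.63 to 12.8 and 7.14 to 16.8 CPM, overlapped. The ketamine difference in CSDS mice was -0.33 ± 0.14 (unadjusted p of 0.026, adjusted p of 0.99), and without CSDS saline mouse 4 it was -0.27 (unadjusted p of 0.064). With the choroid plexus and striatal sums as covariates it was -0.26 (unadjusted p of 0.072) and with the oligodendrocyte sum -0.29 (unadjusted p of 0.055). Without mice 2, 6 and 22 it was -0.36 (unadjusted p of 0.013), and the ketamine difference averaged over stress was -0.20 with an unadjusted p of 0.043.

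In the vHipp, the stress comparison under saline had 2 receptors with an unadjusted p under 0.05, Htr1b and Htr3a (5.57% of all genes), under ketamine 2, Htr7 and Htr2c (5.42%), and averaged over treatments 3, Htr1b, Htr2c and Htr3a (9.71%). All of these were higher in CSDS mice. The ketamine comparisons had none, in CTRL mice (2.88% of genes), in CSDS mice (2.90%) and averaged over stress (3.39%), and the interaction had 1, Htr7 (2.84%). With the sums of the choroid plexus and striatal lists as covariates this changed, again with no call after adjustment (adjusted p of at least 0.63 for the receptors in the vHipp). Htr2c then had a ketamine difference of 0.82 ± 0.28 in CSDS mice (unadjusted p of 0.0060) and of 0.55 ± 0.20 averaged over stress (unadjusted p of 0.0083). In the same fit Htr7 had one of 0.31 ± 0.14 in CSDS mice (unadjusted p of 0.028) and Htr1b one of 0.48 ± 0.24 in CTRL mice (unadjusted p of 0.049). Of the 28991 genes tested, 1151, 1123 and 886 had an unadjusted p under 0.05 in that fit for ketamine in CSDS mice, averaged and in CTRL mice. The Htr7 interaction was 0.53 ± 0.18 there (unadjusted p of 0.0062), whereas the averaged stress difference of Htr2c was 0.33 (unadjusted p of 0.095) and the stress difference of Htr3a under saline 0.27 (unadjusted p of 0.081). The stress difference of Htr3a was 0.30 under ketamine (unadjusted p of 0.040) and 0.29 averaged (unadjusted p of 0.0095). That of Htr7 under ketamine was 0.38 (unadjusted p of 0.0048). In the vHipp too the choroid plexus sum was mostly Enpp2, which oligodendrocytes also express. Enpp2 had a median of 79.3 CPM of a summed median of 105.9 CPM, whereas Ttr had a median of 0.23 CPM. With the oligodendrocyte sum as a covariate the ketamine difference was 0.67 ± 0.26 for Htr2c in CSDS mice (unadjusted p of 0.014), 0.46 ± 0.18 for Htr2c averaged over stress (unadjusted p of 0.016) and 0.61 ± 0.26 for Htr1b in CTRL mice (unadjusted p of 0.021), again with none called.

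Htr1b in the vHipp ranged from 1.60 to 5.45 CPM in CTRL saline (median 2.50), from 2.63 to 7.53 in CTRL ketamine (median 3.88), from 2.43 to 12.5 in CSDS saline (median 4.62) and from 2.04 to 9.21 in CSDS ketamine mice (median 4.05). CTRL saline was the lowest group and CSDS saline held the highest library, mouse 4, with overlap between all groups. The stress difference under saline was 0.79 ± 0.27 on the log2 scale, 1.73-fold (unadjusted p of 0.0058, adjusted p of 0.82). Without CSDS saline mouse 4 it was 0.53 (unadjusted p of 0.046). Averaged over treatments it was 0.49 ± 0.19 (unadjusted p of 0.014, adjusted p of 0.40), and 0.43 without mice 9 and 11.

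Htr3a in the vHipp had medians of 8.41 CPM in CTRL saline, 8.33 in CTRL ketamine, 10.9 in CSDS saline and 10.6 in CSDS ketamine mice. The ranges overlapped, from 5.63 to 12.8, 6.51 to 11.2, 6.57 to 13.8 and 6.52 to 17.1 CPM. The stress difference averaged over treatments was 0.30 ± 0.10 (unadjusted p of 0.0061), and its adjusted p of 0.37 was the lowest of any receptor in the within-region comparisons. The highest library was that of mouse 11, whose sums of astrocyte, microglial and interneuron markers were also the highest of the vHipp, and without mice 9 and 11 the difference was 0.25 (unadjusted p of 0.021). Under saline it was 0.31 ± 0.15 (unadjusted p of 0.045), and without CSDS saline mouse 19 it had an unadjusted p of 0.10. The sum of interneuron markers in the vHipp, which holds Prox1 and is thus no measure of these cells alone, had a mean of 813.9 CPM in CTRL saline, 820.5 CPM in CTRL ketamine, 755.9 CPM in CSDS saline and 798.3 CPM in CSDS ketamine mice, and its part was not tested.

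Htr2c in the vHipp ranged from 10.1 to 43.2 CPM in CTRL saline (median 17.6), from 7.87 to 50.7 in CTRL ketamine (median 22.5), from 15.6 to 44.0 in CSDS saline (median 23.3) and from 16.0 to 81.6 in CSDS ketamine mice (median 26.4). Mice 3 and 5 of the last group, at 81.6 and 75.2 CPM, stood above all other libraries. The stress difference under ketamine was 0.59 ± 0.28 (unadjusted p of 0.043, adjusted p of 0.90), and without mouse 3 it was 0.40 (unadjusted p of 0.16). Averaged over treatments it was 0.42 ± 0.20 (unadjusted p of 0.042), and without mouse 3 it was 0.33 (unadjusted p of 0.095). Ttr, the most abundant gene of the choroid plexus, was 0.05 and 0.35 CPM in the libraries of mice 3 and 5 and 644.8 CPM in that of mouse 9, where Htr2c was 28.4 CPM. The part of choroid plexus tissue in the group difference was not tested by these values.

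**Figure D4:**
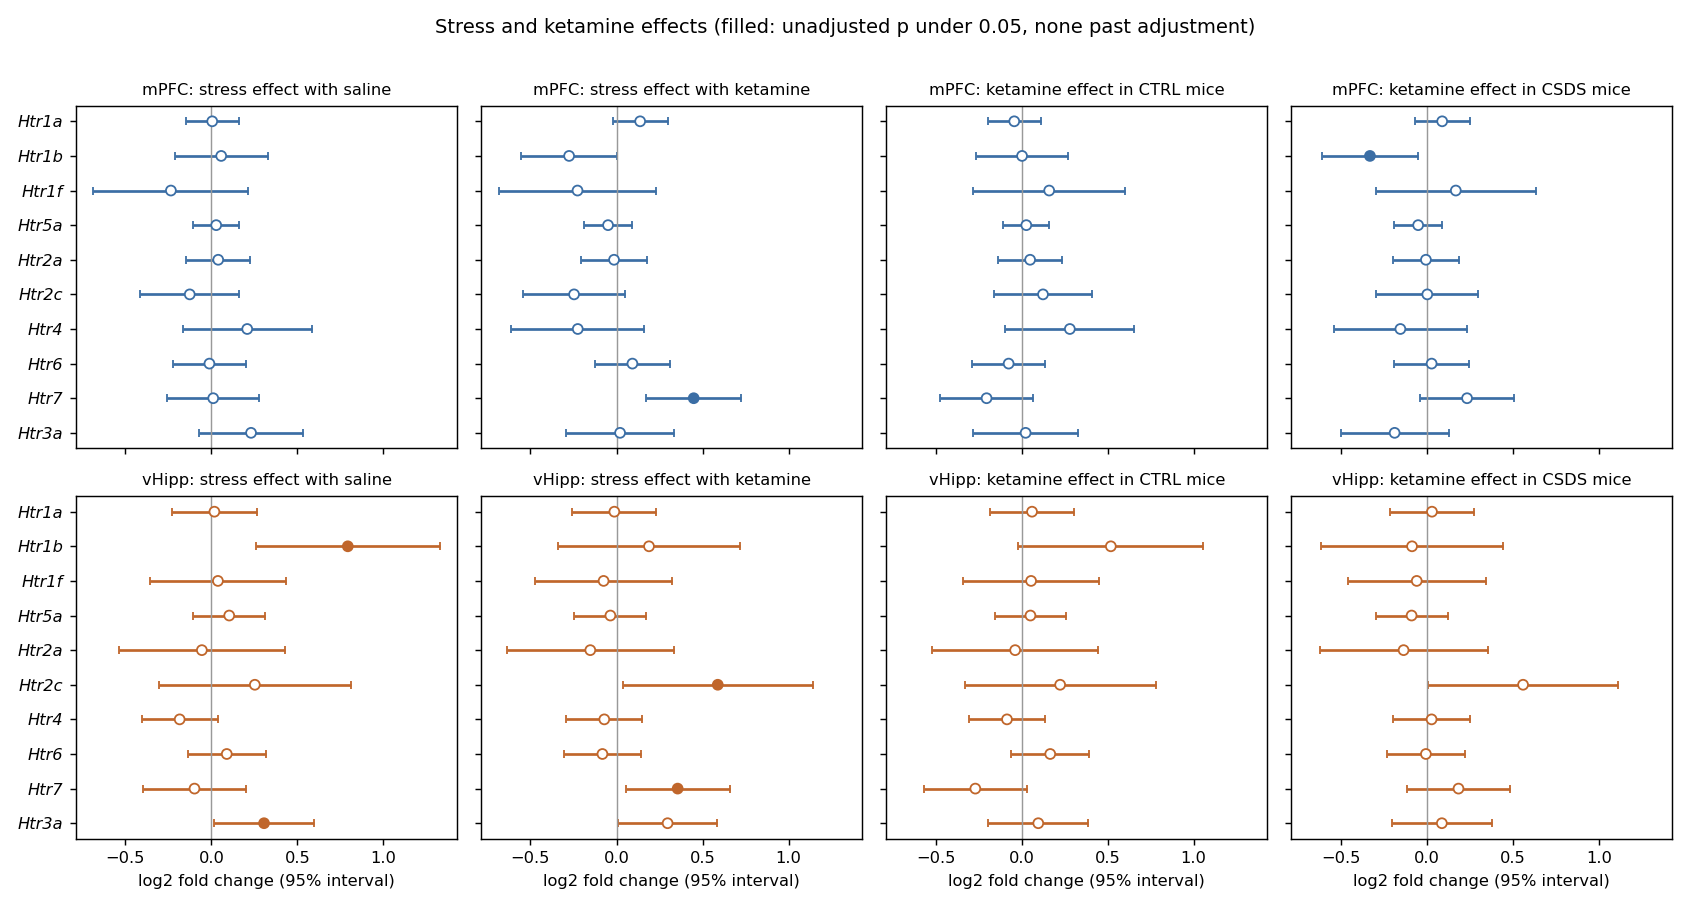
Log2 fold changes of the receptors for stress (CSDS over CTRL, under saline and ketamine) and for ketamine (over saline, in CTRL and CSDS mice) in the mPFC (upper row) and the vHipp (lower row), with bars of the 95% interval. Filled points have an unadjusted p under 0.05, and none passed the adjustment over all genes. The filled points are Htr7 and Htr1b in the mPFC and Htr1b, Htr2c, Htr7 and Htr3a in the vHipp.

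Htr1a, Htr1f, Htr2a, Htr4, Htr5a and Htr6 had no unadjusted p under 0.05 in any stress or ketamine comparison. The largest estimates in size among these 6 were those of Htr4 in the mPFC, at -0.43 ± 0.27 for the interaction (unadjusted p of 0.12) and 0.28 ± 0.19 for ketamine in CTRL mice, and of Htr1f in the mPFC, at -0.24 ± 0.23 for stress under saline, each with a 95% interval that holds 0. For Htr4 the stress difference averaged over treatments was -0.01 in the mPFC (95% interval from -0.28 to 0.26) and -0.13 in the vHipp (from -0.28 to 0.03). For Htr5a it was -0.01 (from -0.11 to 0.09) and 0.03 (from -0.11 to 0.18). For both genes, a difference of the size found between the regions lies outside these 4 intervals.

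Whether the effects differed between the regions was tested directly, over all 79 libraries in a fit without a term for the mouse. For stress, mPFC minus vHipp, no receptor was called, and 2 had an unadjusted p under 0.05, Htr1b at -0.58 ± 0.22 (unadjusted p of 0.0095, adjusted p of 0.65) and Htr2c at -0.60 ± 0.24 (unadjusted p of 0.014, adjusted p of 0.66), against 6.86% of all genes. Without mice 9 and 11 they were -0.55 (unadjusted p of 0.015) and -0.61 (unadjusted p of 0.017). Over 6 settings, the main one and mouse as a block among them, Htr1b lay between -0.61 and -0.52 and Htr2c between -0.63 and -0.51. For ketamine none was called and none was under 0.05 unadjusted, against 3.46% of genes. In both comparisons 0% of genes passed the adjustment.

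The 39 mice with both regions allowed a look at whether a mouse with a high level in one region also had it in the other. Correlations were taken over log2 levels of the 10 receptors, with the group means of each region removed. Htr7 had the highest correlation, Pearson's r of 0.40 (permutation p of 0.012, adjusted over the 10 receptors 0.12) and Spearman's rho of 0.44 (permutation p of 0.0049, adjusted 0.049). Without the 2 mice farthest from the median in the mPFC, r was 0.38. Within CTRL mice r was 0.55 (n = 20) and within CSDS mice 0.26 (n = 19). Htr2a had r of 0.34 (permutation p of 0.033, adjusted 0.15) and Htr1a 0.32 (permutation p of 0.0496, adjusted 0.15), and the other 7 had permutation p above 0.05. On ranks Htr2a had rho of 0.34 (permutation p of 0.032, adjusted 0.16) and Htr1a 0.23 (permutation p of 0.16, adjusted 0.41). For Htr5a, r was 0.21, and -0.09 without mice 1 and 24.

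**Figure D5:**
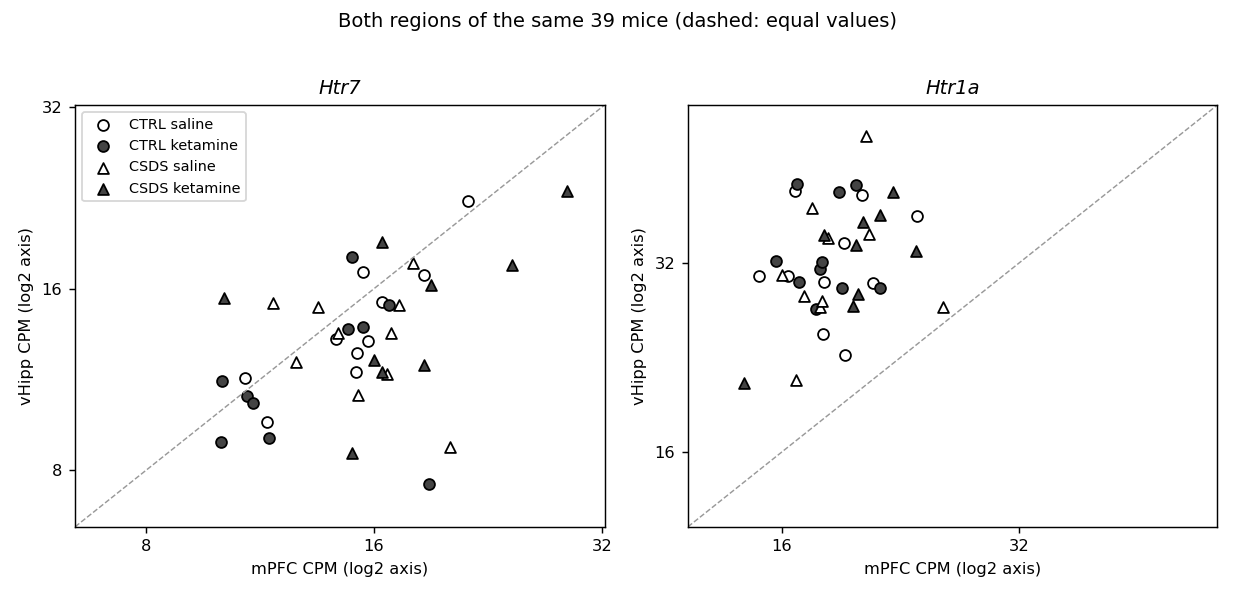
Htr7 and Htr1a in the mPFC (horizontal axis, CPM, log2 scale) and the vHipp (vertical axis, CPM, log2 scale) of the same 39 mice, with a symbol for each group and a dashed line of equal values. Htr7 had r of 0.40 on log2 levels with the group means removed, which are not the values drawn. Htr1a lies above the line in all 39 mice.

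The genes whose level followed a receptor most closely over the libraries of a region, with the group means removed, are given as a description. The libraries' dissection and depth are shared by all points. In the mPFC (39 libraries, 12094 genes compared) Htr2a was followed most closely by Homer1, a scaffold protein of excitatory synapses (r of 0.82), Htr4 by Bcl11b, a transcription factor of deep-layer and striatal neurons (0.87), and Htr1f by Tenm3 (0.87), with Tmem74 and Tle4, a marker of layer 6 neurons, next (both 0.84). Htr5a was followed by Kif21a, Kif3a and Kifap3 (0.84, 0.82 and 0.81), all parts of kinesin motors. Htr3a was followed by Tle1, Rnase4 and Pea15a (0.81, 0.78 and 0.76). In the vHipp (40 libraries, 11916 genes compared) Htr3a was followed by Dlx1 (0.80), Wnt7a (0.74) and Dlx2 (0.71), of which Dlx1 and Dlx2 are transcription factors of inhibitory interneurons. Htr5a was followed by Chd5 (0.88), Htr1b by Arhgap12 (0.84), Htr2c by Tle3 (0.84), Htr4 by Pcdh20 (0.85) and Htr7 by Plagl1 (0.81).

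Among the receptors themselves, with the group means removed, r was above 0.5 in 10 of 45 pairs in the mPFC and below -0.5 in 5. The highest pairs there were Htr2c with Htr4 (0.73) and Htr1f with Htr4 (0.70), and the lowest was Htr1f with Htr3a (-0.67). Htr3a was also low with Htr4 (-0.65), Htr5a (-0.58) and Htr2c (-0.57). In the vHipp 3 of 45 pairs were above 0.5, with Htr2c and Htr7 highest (0.60), and 1 was below -0.5, Htr3a with Htr6 (-0.56). A few libraries held many of the extremes. In the mPFC, CSDS ketamine mouse 1 was lowest of its group for 6 of the 10 receptors and highest for Htr3a, CTRL saline mouse 24 was lowest for 5, and CTRL ketamine mouse 23 was lowest for 4 and highest for Htr1b and Htr3a. In the vHipp, mouse 1 was again lowest of its group for 6 receptors.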

How the data were processed

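The authors prepared stranded mRNA libraries (Illumina Stranded mRNA Prep) and, per the labels, converted base calls with bcl2fastq 2.20.0.422 of CASAVA and counted reads on GRCm38. The deposited values are raw read counts for every gene, not normalized, beside a gene length in bases; aligner and counting program are not given in the sources used here. By the study's methods, samples of low RNA integrity were removed. Region, stress group, treatment and mouse number came from the sample labels. The receptors and the lists of pathway and marker genes were chosen with earlier results of these data known.

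Counts were normalized with TMM factors to CPM over the 79 libraries and, for levels between genes, divided by the exonic length in kilobases. Genes with more than 10 counts in total and detected in more than 3 libraries were tested with edgeR's quasi-likelihood test (edgeR 4.0.16, R 4.3.3), two-sided, with Benjamini-Hochberg adjustment over all genes tested and a threshold of 0.05. The fits held the 4 groups of a region, or the 8 groups of both regions for comparisons across regions, without covariates. The standard error is the log2 fold change divided by the square root of F. The same-mouse relation was taken on log2(CPM + 0.5), with the group means of each region removed, with 100000 permutations. Mouse numbers pair the regions, since both samples came from 1 animal: over 12085 genes, deviations from the group mean correlated with a median of 0.29 within a mouse, above 0.1 in 35 of 39 mice. No pair of libraries agreed within sampling noise (chi-square per gene of at least 4.66 within a group). Total counts of 11726129 to 41767119 leave 10 to 92 counts for the lowest receptor, Htr1f.

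Named genes were the 10 receptors, Tph2, Slc6a4, Maoa, Maob and S100a10, up to 3 pathway genes with the largest fold change among those called, and the genes most like each receptor by Pearson's r (at least 5 CPM). Alternatives were DESeq2 1.42.0, RLE factors, other filters on low counts, the 2 groups compared alone, marker sums as covariates, mouse as a block, a pseudocount of 0.1, CPM without TMM factors and leaving out each library or mouse. The tests were checked on simulated counts, with changes of 2-fold and 4-fold planted in 200 genes. For stress under ketamine edgeR recovered 98 of 100 2-fold changes in each region, with 10 false calls in the mPFC and 7 in the vHipp. In the region difference it recovered 100 of 100, with 23 false calls. DESeq2 recovered 99 of 100 for stress under ketamine in the mPFC, with 17 false calls. Changes smaller than 2-fold were not planted. Promoter windows came from RefSeq (GRCm38.p6).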

Additional observations from a re-analysis of the deposited data

Results flagged for a closer look

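In each region and group, the highest and lowest library of every receptor was set against its nearest neighbor with Dixon's criterion for a single distant value. Of 80 groups of 9 or 10 values, 12 held a distant value, and chance alone gives about 1 in 20, or 4.

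In the mPFC these were Htr1a at 25.6 CPM in CSDS saline mouse 9 (next 20.6), Htr1b at 17.0 CPM in CTRL ketamine mouse 23 (next 12.9), and Htr3a at 12.0 CPM in CSDS ketamine mouse 1 (next 8.17) and at 11.4 CPM in CTRL ketamine mouse 23 (next 7.78). CTRL saline mouse 24 was distant on the low side for Htr2c at 14.7 CPM, Htr4 at 0.96 CPM and Htr5a at 21.2 CPM. Htr5a was also distant at 18.8 CPM in CSDS ketamine mouse 1, on the low side, and at 33.9 CPM in CSDS saline mouse 10, on the high side. Mice 1, 23 and 24 held 8 of the 12 over both regions.

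In the vHipp they were Htr1b at 12.5 CPM in CSDS saline mouse 4 (next 6.45), Htr2a at 36.4 CPM in CSDS ketamine mouse 12 (next 15.5) and Htr3a at 12.8 CPM in CTRL saline mouse 24 (next 8.79). The Htr1b library is the one whose removal lowered the stress difference under saline from 0.79 to 0.53 on the log2 scale.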

How the results depend on the processing

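In the region difference, the number of genes called was 15415 and lay between 12481 and 15437 under DESeq2, RLE factors, both other filters and mouse as a block (15437), and between 15094 and 15495 when 1 mouse was left out. The same 7 receptors were called under each of these other settings. With 1 mouse left out, Htr7 alone lost its call, without mouse 36 (log2 fold change -0.17, adjusted p of 0.0501). With mouse as a block no call among the receptors changed, and the estimate of Htr2c, not called either way, went from -0.02 to -0.16. In the stress and ketamine comparisons no receptor was called under any setting, nor with any library left out (counts of all genes from 0 to 0). DESeq2 called 14 genes in the stress comparison averaged over treatments in the vHipp, where edgeR called 0 and had 2816 genes at an unadjusted p under 0.05. None of the 14 was a receptor, and the cause was not tested. With the sums of the choroid plexus and striatal lists as covariates the stress difference of Htr7 under ketamine in the mPFC was 0.30 in place of 0.45, and the cause was not tested. Leaving out mice 9 and 11, chosen after seeing the data, gave 15496 genes in the region difference with the 7 receptors, and 0 in the comparisons within the vHipp and of the effects between regions. Leaving out mice 2, 6 and 22 in the mPFC and the oligodendrocyte sum as a covariate, also chosen after seeing the data, gave 0 genes in each comparison. The pseudocount and the use of CPM without TMM factors changed no call or level beyond the spread between libraries. Coefficients of variation of 44.3% to 56.8% between vHipp libraries limit Htr1b, Htr2a and Htr2c, and the number of reads limits Htr1f.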

Other observations

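The genes that carry the receptors' signals were compared between the regions too. Of 22 G proteins and effectors, 8 were higher in the vHipp, 8 were lower and 6 did not pass (edgeR, adjusted p of 0.05), beside 24.4% of all genes higher and 24.5% lower. The following were named after their values were seen. Among the potassium channel subunits opened by Gi/o-coupled receptors, Kcnj9 fell from 197.5 ± 13.6 CPM in the mPFC to 94.4 ± 18.5 CPM in the vHipp (log2 fold change -1.07, adjusted p of 5.2e-35), while Kcnj6 rose from 33.5 ± 4.9 to 56.4 ± 12.0 CPM (0.76, adjusted p of 1.7e-19) and Kcnj3 from 147.98 ± 13.0 to 171.2 ± 18.2 CPM (0.21, adjusted p of 2.0e-08). The G protein subunits Gnaq and Gna11, which couple to HTR2 receptors, and Gnas, which couples to HTR4, HTR6 and HTR7, were all higher in the vHipp, by 0.35, 0.25 and 0.31 on the log2 scale. Of the Gi/o subunits, Gnai2 (-0.17, adjusted p of 1.6e-05) and Gnaz (-0.16, adjusted p of 8.0e-07) were lower, and Gnai1, Gnai3 and Gnao1 did not pass. Of the phospholipases Plcb4 was lower (-1.03) and Plcb1, the more abundant, was higher (0.13, adjusted p of 0.014). Adenylyl cyclases were split, with Adcy8 (-0.95), Adcy2 (-0.57) and Adcy1 (-0.37) lower and Adcy9 (0.61) higher. Rgs4, which shortens Gi/o and Gq signals, was 421.7 ± 57.9 CPM in the mPFC and 124.9 ± 20.2 CPM in the vHipp (-1.76, adjusted p of 5.5e-47).

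Of the 50 other genes of the serotonin system, 6 of 49 tested had an unadjusted p under 0.05 for stress averaged over treatments in the vHipp, beside 9.71% of all genes, and 4 of 50 for the difference of the stress effect between the regions, beside 6.86%. Among them Maob, a gene named by rule, had an unadjusted p of 0.043 for stress averaged over treatments in the vHipp (log2 fold change 0.19 ± 0.09, adjusted p of 0.50) and one of 0.028 for the difference of the stress effect between the regions, mPFC minus vHipp (-0.24 ± 0.11, adjusted p of 0.69), and neither passed. Htr2b and Htr3b were nearly undetected, at 0.03 CPM in the mPFC for each.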
